A study of Mus musculus with 24 samples.

Results

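The microRNAs (miRNAs) miR-192, miR-194 and miR-215 were followed in mouse muscle stem cells before and after muscle injury. They are 3 of the 584 miRNA assays of the series and were picked by name: an assay belongs if its name, without the catalogue number, is mmu-miR-192, mmu-miR-194 or mmu-miR-215. All 3 assays lie in single spots of card A, and 0 further assays of the same hairpins are present on either card. The trio was put forward with its levels over the time course already known, so every level and difference given for it is a description and carries no test.

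Quiescent muscle stem cells (0 h) were compared with activated muscle stem cells 36, 60 and 72 h after injury. All groups came from male C57BL/6 mice 8 weeks old, and the labels give neither the kind of injury nor the gate by which cells were isolated, nor how many mice were pooled. Each group was measured with 3 replicates on TaqMan rodent card A and 3 on card B, 24 arrays in all. According to the design text these are technical replicates, so the spread given here is that of the assay and not that between mice.

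miR-192, miR-194 and miR-215 are best known from liver, kidney and gut epithelium, where they are abundant, and as miRNAs whose genes are induced by the tumour suppressor p53. They are made from 2 small gene clusters, each holding a copy of miR-194 beside either miR-192 or miR-215. A miRNA pairs with its target mRNAs mainly through its seed, bases 2 to 8, so miRNAs that share a seed share many predicted targets.

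The mature sequences show which of the 3 belong together. They are RefSeq entries (GRCm38.p6), written 5′ to 3′ with the seed in capitals. All 3 assays were matched to the 5p strand, the arm that the older names without an arm denote.
miR-192: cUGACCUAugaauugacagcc
miR-215: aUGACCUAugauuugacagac
miR-194: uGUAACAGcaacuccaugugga

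miR-192 and miR-215 carry the same seed, UGACCUA, and among the 1679 mature mouse miRNAs of the RefSeq table these 2 are its only bearers. They are identical at 18 of 21 bases. The substitutions from miR-192 to miR-215, counted from the 5′ end, are C1A, A12U and C20A, all outside the seed. The seed of miR-194, GUAACAG, occurs in no other mature miRNA of that table.

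The hairpins show the cluster arrangement, with the mature 5p strand in capitals. On chromosome 1 the plus strand holds Mir194-1 at chr1:185313319-185313385 and, 195 bases further, Mir215 at chr1:185313581-185313692. Both lie inside the span of Iars2, which codes for a mitochondrial isoleucyl-tRNA synthetase and is transcribed from the minus strand. Exons and introns were not used here. On chromosome 19 the plus strand holds Mir194-2 at chr19:6264643-6264728 and, 115 bases further, Mir192 at chr19:6264844-6264932. This pair begins 2338 bases beyond the end of Atg2a, an autophagy gene, and lies within no other gene of the RefSeq table.
Mir194-1: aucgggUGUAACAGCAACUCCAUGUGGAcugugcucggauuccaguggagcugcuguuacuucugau
Mir215: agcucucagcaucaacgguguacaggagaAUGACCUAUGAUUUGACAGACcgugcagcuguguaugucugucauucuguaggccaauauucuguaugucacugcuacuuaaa
Mir194-2: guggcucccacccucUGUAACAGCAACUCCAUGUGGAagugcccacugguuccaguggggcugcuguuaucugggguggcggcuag
Mir192: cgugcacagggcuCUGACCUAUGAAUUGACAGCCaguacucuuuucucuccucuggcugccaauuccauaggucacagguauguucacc

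The mature miR-194 of both hairpins is the same 22-base sequence, so the miR-194 assay cannot tell the chromosome 1 copy from the chromosome 19 copy. The opposite strands do differ, at 18 of 22 identical bases (A8G, C19U, U20C and C22G from Mir194-1 to Mir194-2), but the cards have no assay for them. The mature miR-192 comes from the chromosome 19 cluster alone and the mature miR-215 from the chromosome 1 cluster alone. Whether their assays tell these similar sequences apart was not measured.

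Each array gives a threshold cycle (Ct), the PCR cycle at which fluorescence passes a set threshold, for every assay. The level of a miRNA was taken as the mean U6 Ct of the array (4 spots of U6 small nuclear RNA) minus the miRNA's Ct, a log2 scale on which higher means more RNA. A Ct below 35 counted as detected. The card A arrays detected 181 to 212 assays each and the card B arrays 89 to 120. No read depth exists for such data, and the number of arrays limits the precision. In these bulk samples, fewer cells of a type and less RNA per cell cannot be told apart. The U6 value enters the level of every assay of an array, and the ratio of further control RNAs to U6 drifted over the course: on card A, snoRNA202 changed by -0.88, -2.40 and -3.05 at 36, 60 and 72 h against 0 h, snoRNA135 by -0.22, -0.34 and -0.87, and Y1 by 0.65, 0.11 and -0.32 (log2). Values with other normalizers therefore stand beside the changes below.

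The 3 miRNAs did not follow a common course. Relative to U6, miR-192 and miR-194 were higher at 36 h than at 0 h and lower at 60 and 72 h. With the global mean of the assays detected on every array, the 36 h difference of miR-192 was 0.025 (log2) and miR-194 was lower. With snoRNA202 both were higher at 60 and 72 h. miR-215 was lower at each later time relative to U6, though not at 60 h with snoRNA202, and was close to or beyond the detection limit at 72 h. At 36 h, relative to U6, miR-192 was 2.49-fold above 0 h, and miR-215, which carries the same seed, was 3.57-fold below.

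miR-192, the chromosome 19 miRNA with the UGACCUA seed, had Ct values of 27.1, 27.0 and 27.1 on the 0 h arrays. Its levels there were -11.76, -11.60 and -11.69. At 36 h they were -10.31, -10.41 and -10.37, all 3 above every 0 h array. At 60 h the levels were -12.07, -12.07 and -12.27, and at 72 h they were -13.02, -12.88 and -13.05. The 4 groups did not overlap, in the order 36 h, 0 h, 60 h and 72 h from high to low. The group means were -10.37 ± 0.050 (SD, n = 3) at 36 h and -11.68 ± 0.078 at 0 h, followed by -12.13 ± 0.11 at 60 h and -12.98 ± 0.092 at 72 h, so each step exceeded the replicate SD.

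Against 0 h, the miR-192 level differed by 1.32 ± 0.076 (log2, SE of the fit) at 36 h. The difference was -0.45 ± 0.076 at 60 h and -1.30 ± 0.076 at 72 h, which is 2.46-fold lower. Between later times it was -1.77 at 60 h against 36 h and -0.85 at 72 h against 60 h. The 36 h increase was 1.53 with snoRNA135 and 2.19 with snoRNA202, but 0.025 with the mean of all assays detected on every array of the card (the global mean). The 72 h difference was -0.43 with snoRNA135, -0.27 with the global mean and 1.75, the opposite sign, with snoRNA202. At 60 h snoRNA202 also turned the sign, to 1.95.

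miR-194, made from both clusters, had levels of -12.31, -12.15 and -12.34 at 0 h. At 36 h the levels were -11.78, -11.51 and -11.66, again all above the 0 h arrays, though by less than for miR-192. The levels at 60 h were -14.28, -13.68 and -13.91, and at 72 h they were -14.92, -14.62 and -14.63. No groups overlapped, and the order was the same as for miR-192. The group means were -11.65 ± 0.14 (SD, n = 3) at 36 h and -12.27 ± 0.098 at 0 h, then -13.96 ± 0.30 at 60 h and -14.72 ± 0.17 at 72 h.

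The miR-194 level differed from 0 h by 0.62 ± 0.15 (log2, SE) at 36 h, 1.53-fold. At 60 h it was 3.23-fold lower (-1.69 ± 0.15) and at 72 h 5.50-fold lower (-2.46 ± 0.15). The difference was -2.31 between 60 h and 36 h and -0.77 between 72 h and 60 h. The sign at 36 h depended on the normalizer, with 0.83 for snoRNA135, 1.495 for snoRNA202 and -0.67 for the global mean. The lower level at 72 h was -1.59 with snoRNA135 and -1.43 with the global mean, and turned to 0.59 with snoRNA202. At 60 h snoRNA202 likewise gave 0.71.

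miR-215, the chromosome 1 miRNA with the same seed as miR-192, had levels of -14.31, -14.37 and -14.61 at 0 h. At 36 h they were -16.29, -16.02 and -16.49, all below the 0 h arrays. The 60 h levels, -16.89, -16.72 and -16.20, overlapped those at 36 h. At 72 h 1 of 3 arrays gave a Ct below 35 (34.3, level -19.12), another gave a Ct of 35.2 and the remaining array gave none. The group means were -14.43 ± 0.16 (SD, n = 3) at 0 h, -16.27 ± 0.24 at 36 h and -16.60 ± 0.36 at 60 h.

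The miR-215 level differed from 0 h by -1.84 ± 0.20 (log2, SE) at 36 h and by -2.17 ± 0.20 at 60 h, 4.51-fold lower. With undetected values set to Ct 35, the 72 h level was 37.6-fold below 0 h (log2 -5.23) and 8.32-fold below 60 h (-3.06). From the 2 arrays at 72 h that gave a Ct, it was 36.4-fold below 0 h (-5.18) and 8.06-fold below 60 h (-3.01). The single detected 72 h array was 25.9-fold below the 0 h mean. The 36 h difference kept its sign with every normalizer tried, at -1.62 with snoRNA135, -0.96 with snoRNA202 and -3.13 with the global mean. The 72 h difference did so too, at -4.37, -2.18 and -4.20, while the 60 h difference was 0.23 with snoRNA202. Between 36 and 60 h the difference was -0.34 with U6 and had the opposite sign with snoRNA202 (1.19) and the global mean (1.11).

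**Figure D1:**
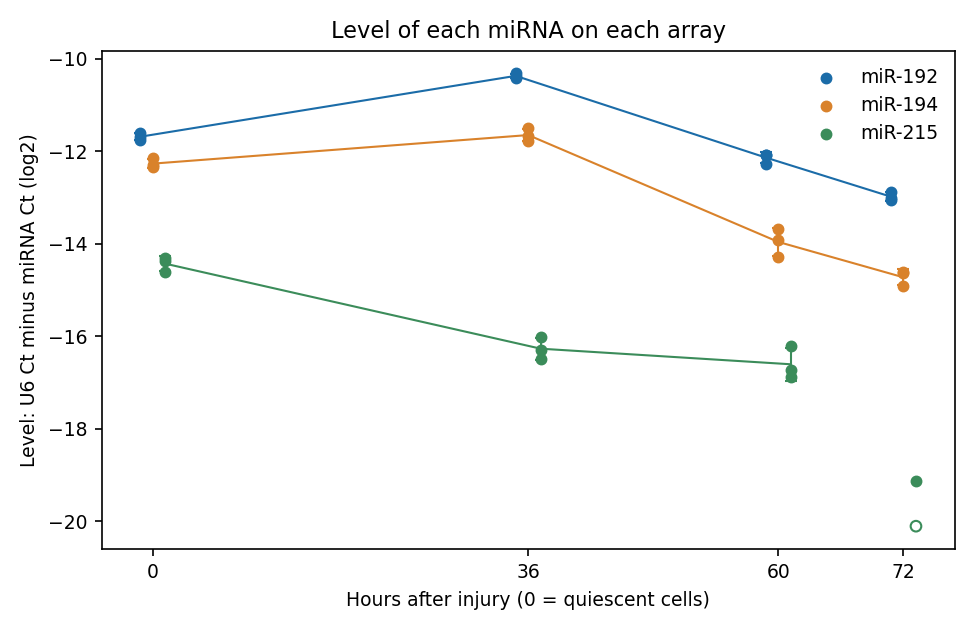
Level of miR-192, miR-194 and miR-215 (U6 Ct minus miRNA Ct, log2) on each card A array at 0, 36, 60 and 72 h; points are arrays, lines join group means with SD bars, and the open point is the 72 h array with a Ct above 35. miR-192 and miR-194 peak at 36 h at mean levels of -10.37 and -11.65, while miR-215 lies lower at every later time than at 0 h. With snoRNA202 in place of U6 the 60 h differences of all 3 and the 72 h differences of miR-192 and miR-194 have the opposite sign. With the global mean the 36 h difference of miR-194 has the opposite sign and that of miR-192 is 0.025 (log2). The 72 h array without a Ct for miR-215 is not drawn.

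Differences of at least 2-fold were common among the assays of the cards. Counting differences of at least 2-fold with no overlap between the replicates, 1 of 3 members was higher at 36 h (miR-192), against 44.5% of the 272 assays tested, and 1 was lower (miR-215), against 12.1%. At 60 h 0 of 3 were higher, against 28.0% of 250 assays, and 2 of 3 were lower (miR-194 and miR-215), against 37.2%. At 72 h both members with enough detected arrays were lower, against 46.7% of 244 assays, and 0 were higher, against 20.9%. From 36 to 60 h 2 of 3 members were lower (miR-192 and miR-194), against 50.2% of 279 assays, and 0 were higher, against 5.02%. From 60 to 72 h 0 of 2 were higher, against 0.755% of 265 assays, and 0 were lower, against 36.6%. These contrasts are the ones on which the members were proposed, and nothing is read from the counts.

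Set against the median assay of card A, the trio spread out rather than shifting together. At 36 h the median of 177 tested card A assays was 0.91, and miR-192 lay 0.41 above it, miR-194 0.29 below it (-0.29) and miR-215 2.75 below it (-2.75). Only 7 of those assays had a lower 36 h difference than miR-215. At 60 h miR-192 was within 0.040 of the median (-0.49), with miR-194 at -1.20 and miR-215 at -1.68 relative to it. At 72 h miR-192 was again near the median (0.070 above -1.37), miR-194 stood at -1.09 and miR-215 at -3.86 with undetected values at Ct 35 (-3.82 from the arrays with a Ct). For this ranking only miR-215 had undetected values set to Ct 35. Of 166 tested card A assays, 3 had a lower 72 h difference than miR-215. Between 72 and 60 h, 0 of 178 had a lower difference. Tested assays had at least 2 detected arrays in both groups. Assays lost at 72 h, as miR-215 was, are therefore missing from the ranking, and nothing is read from its place there. Thus miR-192 lay near the median assay of its card at 60 and 72 h. miR-194 lay below the median but not at the low end. At 60 h 49 of 168 tested card A assays had a lower difference than miR-194, and at 72 h 51 of 166 did.

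**Figure D2:**
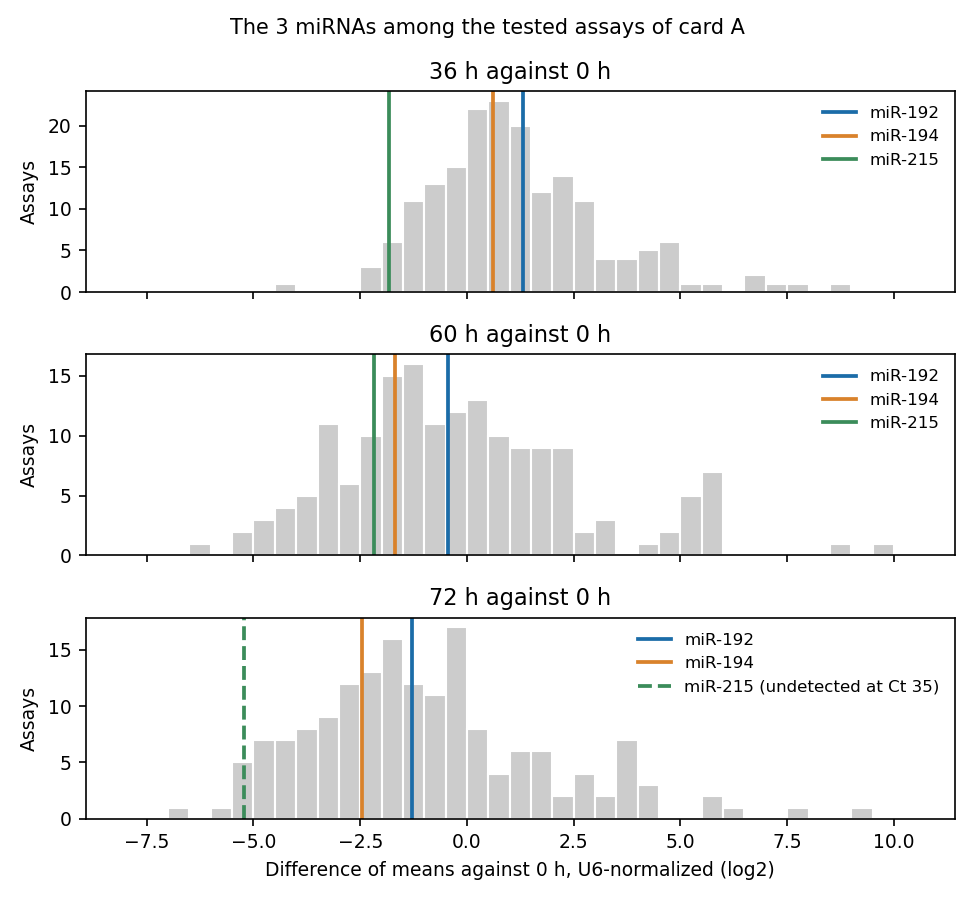
Number of tested card A assays by their U6-normalized difference of means against 0 h (log2, bins of equal width) at 36, 60 and 72 h, with miR-192, miR-194 and miR-215 as vertical lines (dashed where undetected values of miR-215 were set to Ct 35). At 36 h miR-215 lies in the lower tail at -1.84 while miR-192 lies at 1.32; at 72 h miR-192 sits near the card median of -1.37.

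The Ct difference between 2 assays on the same array needs no normalizer. Its size at a given time also reflects how well each assay amplifies, so only its change over time is read. The Ct of miR-194 minus that of miR-192 was 0.58 ± 0.057 (SD, n = 3) at 0 h. By 36 h it had reached 1.28 ± 0.19, followed by 1.82 ± 0.34 at 60 h and 1.74 ± 0.16 at 72 h. All later arrays lay above the 0 h arrays, whose highest value was 0.65 against a lowest later value of 1.09. miR-192 thus gained on miR-194 by 0.70 ± 0.11 (log2, SE) at 36 h, 1.24 ± 0.20 at 60 h and 1.16 ± 0.098 at 72 h, or 2.24-fold at the end of the course.

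miR-192 and miR-215, the pair with the shared seed, separated further. The Ct of miR-215 minus that of miR-192 was 2.75 ± 0.19 (SD, n = 3) at 0 h, 5.90 ± 0.27 at 36 h and 4.47 ± 0.47 at 60 h. The only detected 72 h array gave 6.25. Relative to miR-215, miR-192 was 8.89-fold higher at 36 h than at 0 h (log2 3.15 ± 0.19, SE) and 3.30-fold higher at 60 h (1.72 ± 0.29). On the 1 array at 72 h the ratio was 11.3-fold above the 0 h mean.

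miR-194 and miR-215, which share the chromosome 1 cluster, also moved apart at 36 h. Their Ct difference was 2.16 ± 0.14 (SD, n = 3) at 0 h and 4.62 ± 0.19 at 36 h, a 5.48-fold shift toward miR-194. At 60 h it was 2.65 ± 0.38, and the change from 0 h was 0.48 ± 0.23 (log2, SE). The 0 h arrays reached 2.28 at most, and the lowest 60 h array gave 2.29, so the groups barely stood apart. The 1 detected array at 72 h gave 4.50. Whether the miR-192 assay also reads miR-215, or the reverse, was not measured.

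**Figure D3:**
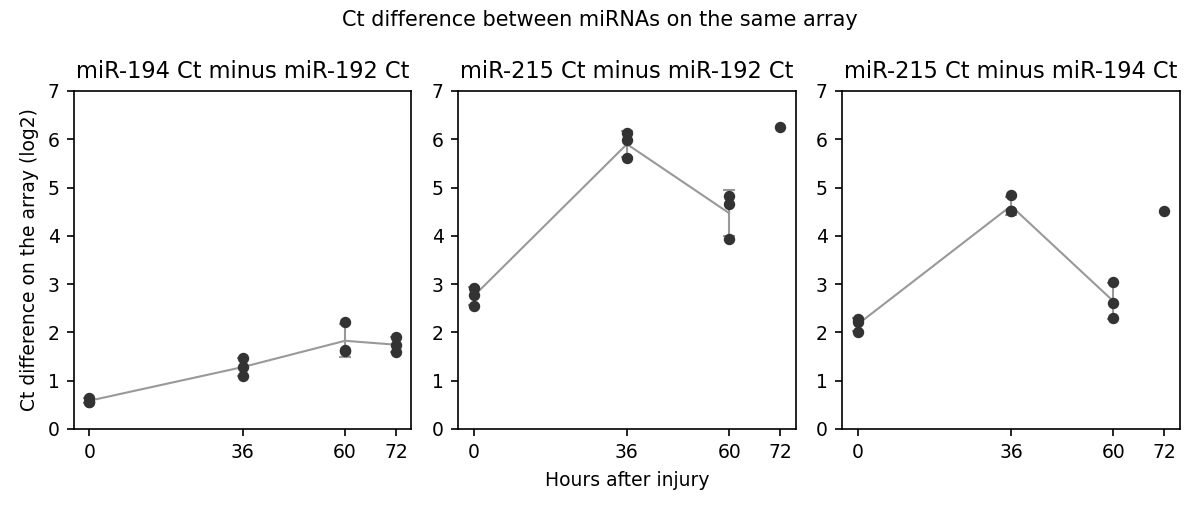
Ct difference between each pair of the 3 miRNAs on the same card A array (log2 scale, no normalizer) at 0, 36, 60 and 72 h; points are arrays and lines join means with SD bars where all 3 arrays were detected. The miR-215 minus miR-192 difference rises from a mean of 2.75 at 0 h to 5.90 at 36 h, and the 72 h points with miR-215 are single arrays.

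**Figure D4:**
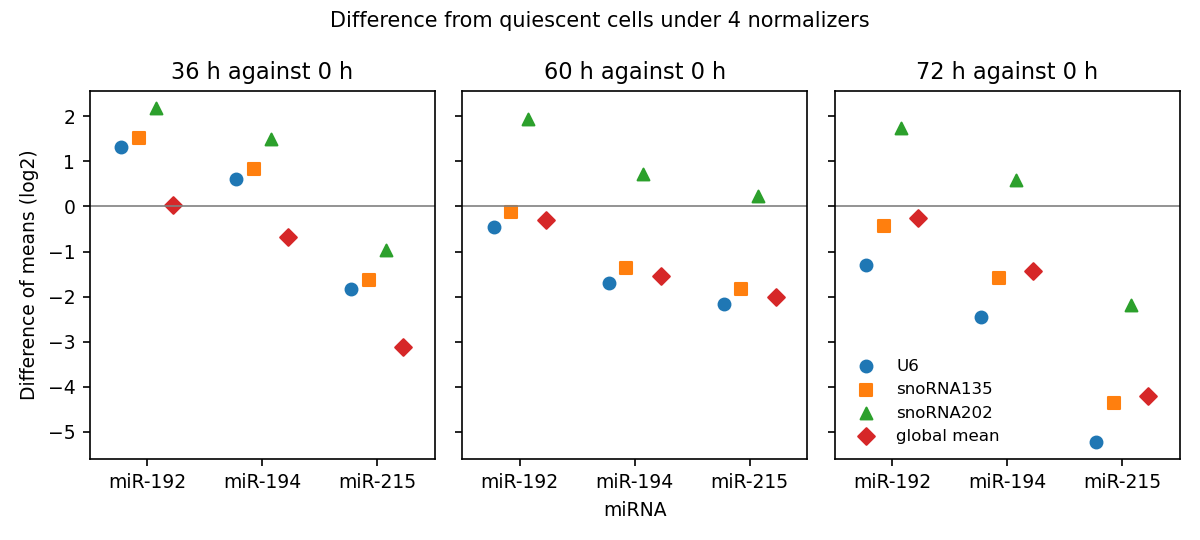
Difference of group means against 0 h (log2) of miR-192, miR-194 and miR-215 at 36, 60 and 72 h with U6, snoRNA135, snoRNA202 or the global mean as normalizer; each symbol is a normalizer, and undetected values of miR-215 at 72 h are set to Ct 35. The order miR-192 above miR-194 above miR-215 is the same for every normalizer by construction, whereas the sign of the miR-192 and miR-194 differences is not.

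Across arrays, the level of miR-192 correlated with that of miR-194 at Pearson r = 0.92 over 12 arrays. This is a description, since all assays share the U6 value and the 4 groups, and 33 other assays of card A were closer to miR-192. The median r of the 151 assays compared with miR-192 was 0.80. Over the 10 arrays that detected miR-215, its r was 0.31 with miR-192 and 0.62 with miR-194. With the global mean as normalizer the r of miR-192 and miR-194 was 0.79, which placed miR-194 at rank 24 of the 151 assays compared with miR-192. The median r was then 0.059 for miR-192 and 0.32 for miR-194.

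The assays whose level most resembled that of miR-192 were rno-miR-196c (r = 0.99), miR-218 (0.99), miR-340-3p (0.98), miR-152 (0.98) and miR-185 (0.98), over 12 arrays. Relative to U6 all 5 were above 0 h at 36 h and below it at 60 and 72 h, as in miR-218, with differences of 2.12, -0.57 and -1.47. Those closest to miR-194 were miR-376a (0.99), miR-204 (0.99), miR-30d (0.99), miR-30a (0.99) and miR-411 (0.98). Of these, miR-204 differed from 0 h by 0.67, -2.96 and -4.46 at 36, 60 and 72 h. The closest to miR-215, over 10 arrays, were miR-188-5p (0.95), miR-494 (0.92), miR-193b (0.90), miR-676 (0.89) and miR-532-3p (0.89). miR-188-5p was below 0 h throughout relative to U6, with differences of -1.81, -2.53 and -3.85.

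Other miRNAs reported to respond to p53 were compared with the test that the trio was not given. The list holds miR-34a, miR-34b-3p, miR-34c, miR-145, miR-143, miR-15a, miR-16, miR-103 and miR-107, 9 assays in all, of which 5 had at least 2 detected replicates in both groups. Changed assays had an adjusted p below 0.05 (limma, Benjamini-Hochberg over the assays of both cards) and at least a 2-fold difference. Because the replicates are technical, these p-values measure the spread of the assay only. At 36 h 4 of 5 were higher and 0 lower, against 44.1% higher and 12.1% lower of all 272 assays tested, with a median difference of 1.66 against 0.82 for all. Normalized to the global mean, 2 rose and 1 fell, against 59 higher and 89 lower of all 272 assays. miR-34b-3p, of the family best known as p53 targets, rose by 2.69 ± 0.10 (log2, SE, adjusted p = 3.29e-09 by limma). miR-143, abundant in smooth muscle, rose by 2.57 ± 0.082, and miR-16, which restrains the cell cycle, rose by 1.36 ± 0.055. With the global mean miR-16 was at 0.071 and was not called. miR-34a, miR-34c and miR-15a were detected on 3 of 3 arrays at 36 h and on 0 of 3 at 0 h. Of the 375 card A assays, 205 were detected on 3 of 3 arrays at 36 h and 171 at 0 h. How many of all assays went from 0 of 3 to 3 of 3 was not counted.

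At 60 and 72 h this list split. At each of these times 1 of 5 tested assays was higher and 2 were lower. All assays tested were higher in 28.0% and lower in 36.4% of cases at 60 h, and in 20.9% and 45.9% at 72 h. With snoRNA202, 3 were higher and 1 lower at both times. Of all assays tested, snoRNA202 gave 179 higher and 20 lower of 250 at 60 h. At 72 h it gave 166 higher and 24 lower of 244. With snoRNA135 and with the global mean, 2 of the list were higher and 2 lower at 60 h. Of all 250 assays, snoRNA135 then gave 82 higher and 76 lower, and the global mean 74 and 86. At 72 h both normalizers left the list at 1 higher and 2 lower. Relative to U6 the median of the list was 0.19 at 60 h (all assays -0.37) and -0.81 at 72 h (all assays -0.77). miR-34b-3p remained above 0 h (2.04 ± 0.10 at 60 h and 1.31 ± 0.10 at 72 h). miR-145 fell at both times (log2 -4.23 and -4.93), and so did miR-143 (-2.09 and -2.27), whose sign turned with snoRNA202 (0.32 and 0.78, neither called). At 0 h miR-34a, miR-34c, miR-15a and miR-107 were detected on 0 of 3 arrays and so were not tested. miR-34c was detected on 3 of 3 arrays at 60 and 72 h, and miR-107 on 2 of 3 and 3 of 3. At both times miR-34a was detected on 2 of 3 arrays and miR-15a on 1 of 3. Of all card A assays, 177 were detected on 3 of 3 arrays at 60 h and 180 at 72 h, against 171 at 0 h. Relative to U6 the tested assays therefore held both a miRNA that stayed high and miRNAs that, like miR-192, miR-194 and miR-215, stood below 0 h.

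The miRNAs listed for liver and epithelium in general, not only for the tissues in which the trio is abundant, were mostly not detected. Of 10 assays (miR-122, miR-802, miR-375, miR-200a, miR-200b, miR-200c, miR-141, miR-429, miR-203 and miR-205), 6 were detected on no array, among them miR-122, the defining hepatocyte miRNA, and miR-141. The only tested assay, miR-203, had a difference of 0.44 ± 0.083 at 36 h (log2, SE), was called lower at 60 h (-1.68) and 72 h (-2.97), and lost both calls with snoRNA202 (0.72 and 0.079). miR-200c and miR-205 were detected on 3 of 3 arrays at 36 h and on 0 of 3 at 0 h, and miR-375 on 2 of 3 arrays at 0 h. Of all card A assays, 205 were detected on 3 of 3 arrays at 36 h and 171 at 0 h. The summed level of the 8 epithelial and liver markers, as a percent of U6 with every cycle taken as a doubling, was 0.167 to 0.188% at 0 h and 0.232 to 0.259% at 36 h, with 1 and 3 of 8 detected. It was 0.0520 to 0.0567% at 60 h, with 1 of 8 detected, and 0.0205 to 0.0237% at 72 h, with 1 to 2 of 8 detected. This sum was almost all miR-203, the only one of these markers detected at 0 and 60 h. At 36 h the mean level of miR-203 was -8.72, against -15.17 for miR-200c and -17.27 for miR-205. The sum thus followed 1 assay.

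Relative to U6, the summed markers of other cells were higher at 36 h than at 0 h, as miR-192 and miR-194 were. The median of all 272 tested assays was also higher, by 0.82 (log2), and so was the muscle sum given below. The sums were not taken with other normalizers. The 6 blood cell miRNAs (miR-142-3p, miR-142-5p, miR-223, miR-150, miR-155 and miR-451) summed to 2.28 to 2.35% of U6 at 0 h, with 4 of 6 detected, and to 6.56 to 6.89% at 36 h, with 6 of 6 detected. They were at 0.900 to 1.01% at 60 h and 0.479 to 0.529% at 72 h. miR-142-5p and miR-451 were undetected at 0 h. The blood cell sum at 0 h was mostly miR-150, whose mean level was -5.53 at 0 h and -5.12 at 36 h. The other detected members rose by more. miR-223 went from -12.62 to -4.98, miR-142-3p from -18.22 to -9.68 and miR-155 from -9.58 to -7.57. Both strands of the endothelial miR-126 summed to 4.37 to 4.62% at 0 h and 20.4 to 20.6% at 36 h, then to 1.29 to 1.37% at 60 h and 1.17 to 1.19% at 72 h. The 4 mesenchymal and smooth muscle miRNAs (miR-143, miR-145, miR-199a-3p and miR-214) went from 10.7 to 11.6% at 0 h to 14.8 to 15.4% at 36 h, 1.39 to 1.43% at 60 h and 0.883 to 0.930% at 72 h. Their most abundant member at 0 h, miR-145, did not share the 36 h rise, with a difference of -0.33 (log2). The part of these cells in the levels of the trio was not tested.

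The labelled cell type was checked against muscle miRNAs. All 4 (miR-206, miR-1, miR-133a and miR-133b) were detected in every group and summed to 6.09 to 7.71% of U6 at 0 h and 49.2 to 52.3% at 72 h. They reached 9.82 to 10.6% at 36 h and 29.3 to 29.8% at 60 h. Most of this sum was miR-206, with mean levels of -3.86 at 0 h and -1.03 at 72 h. The next highest muscle miRNA was at -10.15 at 0 h and -6.66 at 72 h. At 0 and 36 h the muscle sum was below the mesenchymal and smooth muscle sum, and at 36 h also below endothelial miR-126. At 60 and 72 h it was above both. miR-489, a miRNA of quiescent muscle stem cells, was at 0.171 to 0.206% at 0 h and 0.00163 to 0.00205% at 72 h. Neither the muscle sum nor miR-489 was highest at 36 h. Of the 4 muscle miRNAs, miR-1 was, with mean levels of -15.42, -12.45, -13.72 and -12.86 at 0, 36, 60 and 72 h.

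The authors' deposited table gives linear fold changes against day 0. For day 1.5 it lists 2.49 for miR-192, 1.54 for miR-194 and 0.281 for miR-215. For day 2.5 the authors' deposited table lists 0.732, 0.313 and 0.232. Its last time point is headed day 3.5 where the labels give 72 h, and the authors' deposited table lists 0.407, 0.183 and 0.0179 there. The last value rests on a table in which 40 stands where no Ct was determined, whereas the value above used Ct 35.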

How the data were processed

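Total RNA was extracted with Trizol and run on TaqMan rodent microRNA cards A and B for 40 cycles on an ABI 7900HT, per the labels. The deposited array files hold a Ct per spot. Which software and threshold gave it is not given in the sources used here. In the table of card A, the authors' deposited fold changes are linear ratios from ddCt averaged over 3 replicates, per the file headers. The other 84 per-sample columns of the deposited tables were not used.

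Groups came from the labels, and the card from the assay names in each file. Spots of an assay were averaged, and detection required a Ct below 35 in each of them. Values of undetected assays stayed out of the fit. limma 3.58.1 (R 4.3.3) was fitted per card over its 12 arrays, for assays with at least 2 detected replicates in both groups, with Benjamini-Hochberg adjustment over both cards. The fit was tested on simulated data. The SE of each member comes from it.

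The members and lists were chosen with earlier results of these data known. Named assays were the members, the 5 assays with the highest Pearson r to each member, and at most 4 examples per list. Normalizers, detection limits, a replicate block and left-out replicates were varied.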

Additional observations from a re-analysis of the deposited data

Results flagged for a closer look

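miR-192 and miR-194 were each above every 0 h array at 36 h and below every 0 h array at 60 and 72 h, so the effects against 0 h had opposite signs at different times. For miR-192 the later level minus the 36 h level was -1.77 at 60 h and -2.61 at 72 h (log2). For miR-194 these differences were -2.31 and -3.08. The differences between times were not tested for these miRNAs. With snoRNA202 as normalizer the signs against 0 h were not opposite, since miR-192 stood at 2.19, 1.95 and 1.75 and miR-194 at 1.495, 0.71 and 0.59. With the global mean miR-194 stood at -0.67, -1.54 and -1.43, also of one sign, and miR-192 at 0.025, -0.29 and -0.27. Groups of 3 arrays are too small for a check on single outlying arrays.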

How the results depend on the processing

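The normalizer decided most values. Differences are given in the order 36, 60 and 72 h against 0 h, then 60 h against 36 h and 72 h against 60 h (log2). With snoRNA202, miR-192 gave 2.19, 1.95, 1.75, -0.24 and -0.20, miR-194 1.495, 0.71, 0.59, -0.78 and -0.12, and miR-215 -0.96, 0.23, -2.18, 1.19 and -2.41. Of these, the 60 and 72 h differences of miR-192 and miR-194 against 0 h and the differences of miR-215 at 60 h against 0 h and against 36 h had the opposite sign to those with U6. With snoRNA135, miR-192 gave 1.53, -0.11, -0.43, -1.65 and -0.32. For miR-194 it gave 0.83, -1.36 and -1.59 against 0 h and -0.24 for 72 h against 60 h, and for miR-215 -1.62, -1.84, -4.37 and, for 72 h against 60 h, -2.53. With the global mean, miR-192 gave 0.025, -0.29, -0.27, -0.32 and 0.030. For miR-194 it gave -0.67 at 36 h, -1.43 at 72 h, -0.86 and 0.11 between later times, and for miR-215 -3.13 at 36 h, -4.20 at 72 h, 1.11 and -2.18. The cause of these shifts was not tested. With snoRNA202 the changed liver and epithelial assays numbered 1, 0 and 0 at 36, 60 and 72 h, against 0, 1 and 1. The only tested assay of that list was miR-203. Of all assays tested, 186 of 272, 199 of 250 and 190 of 244 changed with snoRNA202. With the global mean, 1, 1 and 2 of the 5 assays most like miR-192, miR-194 and miR-215 were the same. Detection limits of Ct 32 and 40 moved none of the level differences they could give by more than the replicate SD. With a limit of Ct 40, chosen for the ratios after seeing the data, miR-192 over miR-215 at 72 h was 3.92 and miR-194 over miR-215 was 2.68, from 2 arrays in place of 1. For miR-215 at 60 and 72 h a limit of Ct 32 left too few arrays.

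Leaving out a replicate gave -5.50 to -5.07 for miR-215 at 72 h against 0 h and kept the sign of every level difference of the 3 miRNAs. With the replicate block the changed assays numbered 154, 162 and 162 at 36, 60 and 72 h, against 153, 161 and 163 without it, and no list count moved. Same-numbered arrays of different groups correlated at -0.27 to 0.36 on card A and at -0.43 to 0.49 on card B. On card A 6 of 12 arrays correlated best with their own number, and on card B 5 of 12. With 3 replicates per group these values cannot decide whether the numbers pair the samples.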
